A study of Mus musculus with 10 samples.

Results

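The 9 genes described here are *Mgp* itself and 8 genes chosen by name for their place beside it: *Ggcx*, *Vkorc1* and *Vkorc1l1* of the vitamin K cycle, *Gas6* as a second carboxylated protein, *Enpp1* and *Ank* of pyrophosphate supply, and the phosphate transporters *Slc20a1* and *Slc20a2*. All 9 were among the 27267 genes listed for the series, and all 9 passed the filter on low values that left 13714 tested genes. The study sequenced RNA of interscapular brown adipose tissue (iBAT) from mice labelled as with or without the matrix Gla protein gene. The wild-type group held 5 mice and 5 mice were labelled *Mgp*-KO, for which the methods name the germline Mgptm1Kry allele, a global deletion not limited to a cell type. The reads of *Mgp* go against this label in 2 of the 5. Both groups shared the C57BL/6 strain label, the male label, an age of 4 weeks and a chow diet, and no other allele or agent is named for either. The comparison asks whether the genes that activate MGP, or that limit mineral by another route, differed in expression where *Mgp* was missing.

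Vitamin K-dependent proteins are secreted proteins whose glutamate residues are turned into gamma-carboxyglutamate (Gla), which binds calcium. The carboxylase GGCX does this in the endoplasmic reticulum and oxidizes vitamin K hydroquinone to an epoxide, which VKORC1 and VKORC1L1 reduce again. MGP is such a protein, known as an inhibitor of calcification in arteries and cartilage and as a binder of bone morphogenetic proteins. Mineral is also held back by pyrophosphate, which ENPP1 makes from extracellular ATP and ANK releases from the cell, while phosphate enters cells through the sodium-dependent transporters SLC20A1 and SLC20A2.

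Some libraries go against their labels, and the results rest on them to different degrees. The libraries labelled *Mgp*-KO 4 and 5 held reads of *Mgp*, so that the group is named by its label (KO-labelled) throughout. Wild type 2, labelled male, had a normalized count of 5094 for the female-expressed *Xist* and only 3.74 summed over 4 genes of the Y chromosome. Replicates 1 to 3 held between 19616366 and 22252260 reads on genes and replicates 4 and 5 between 9253793 and 13281873, with 0.771% to 1.72% and 6.50% to 16.7% of them on the 2 mitochondrial ribosomal RNA genes. Results are therefore reported for the 10 libraries together, with these 2 sets as a term in the model, and for each set alone. All values are normalized counts, that is, reads divided by a size factor of the library, and fold changes are on the scale of log2(normalized count + 1), which understates those of low genes. A gene is called where its adjusted p, by the Benjamini-Hochberg method over all 13714 tested genes in limma, is under 0.05, and in edgeR and DESeq2 likewise. SE is the standard error. The p-values measure the spread between these mice. In bulk tissue, fewer cells of a type and less RNA per cell cannot be told apart.

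*Mgp* (ENSMUSG00000030218.2) lies on chromosome 6 (reverse strand, 136872435 to 136875823) in GRCm38 (mm10). It had normalized counts of 576, 489, 466, 1146 and 839 in wild type 1 to 5. In the KO-labelled libraries 1 to 5 they were 0, 0.765, 0.821, 500 and 331. *Mgp* was thus all but absent from 3 of these libraries and present in the other 2 below both wild-type libraries of the same set. The KO-labelled libraries 1 to 3 had 0, 1 and 1 reads, a level at least 207-fold lower than wild type 1 to 3 (mean) at a floor of 3 reads per library. The KO-labelled libraries 4 and 5 were at 50.4% and 33.3% of the mean of wild type 4 and 5, and their mean was 81.4% of that of wild type 1 to 3. The sets are described by these reads, so a test of how far the effect on *Mgp* differs between them is not used here. Of the other 8 genes 0 had a genotype effect that differed between the sets in limma. The share over all tested genes, 0.00729%, is 1 gene, *Mgp* itself. At an unadjusted p under 0.05 in limma there were 2 of the 8, *Vkorc1l1* and *Slc20a2* (10.3% of all tested genes). Per kilobase of exon, *Mgp* and *Ank* were the highest of the 9 genes in wild type, at 592 ± 243 and 559 ± 177 (SD, n = 5 each) normalized counts per kb, and *Mgp* was above 93.8% of the tested genes. Their order turned with the set. *Ank* was above *Mgp* in wild type 1 to 3, at 546, 650 and 737 against 485, 412 and 393, and below it in wild type 4 and 5, at 268 and 592 against 966 and 707.

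**Figure D1:**
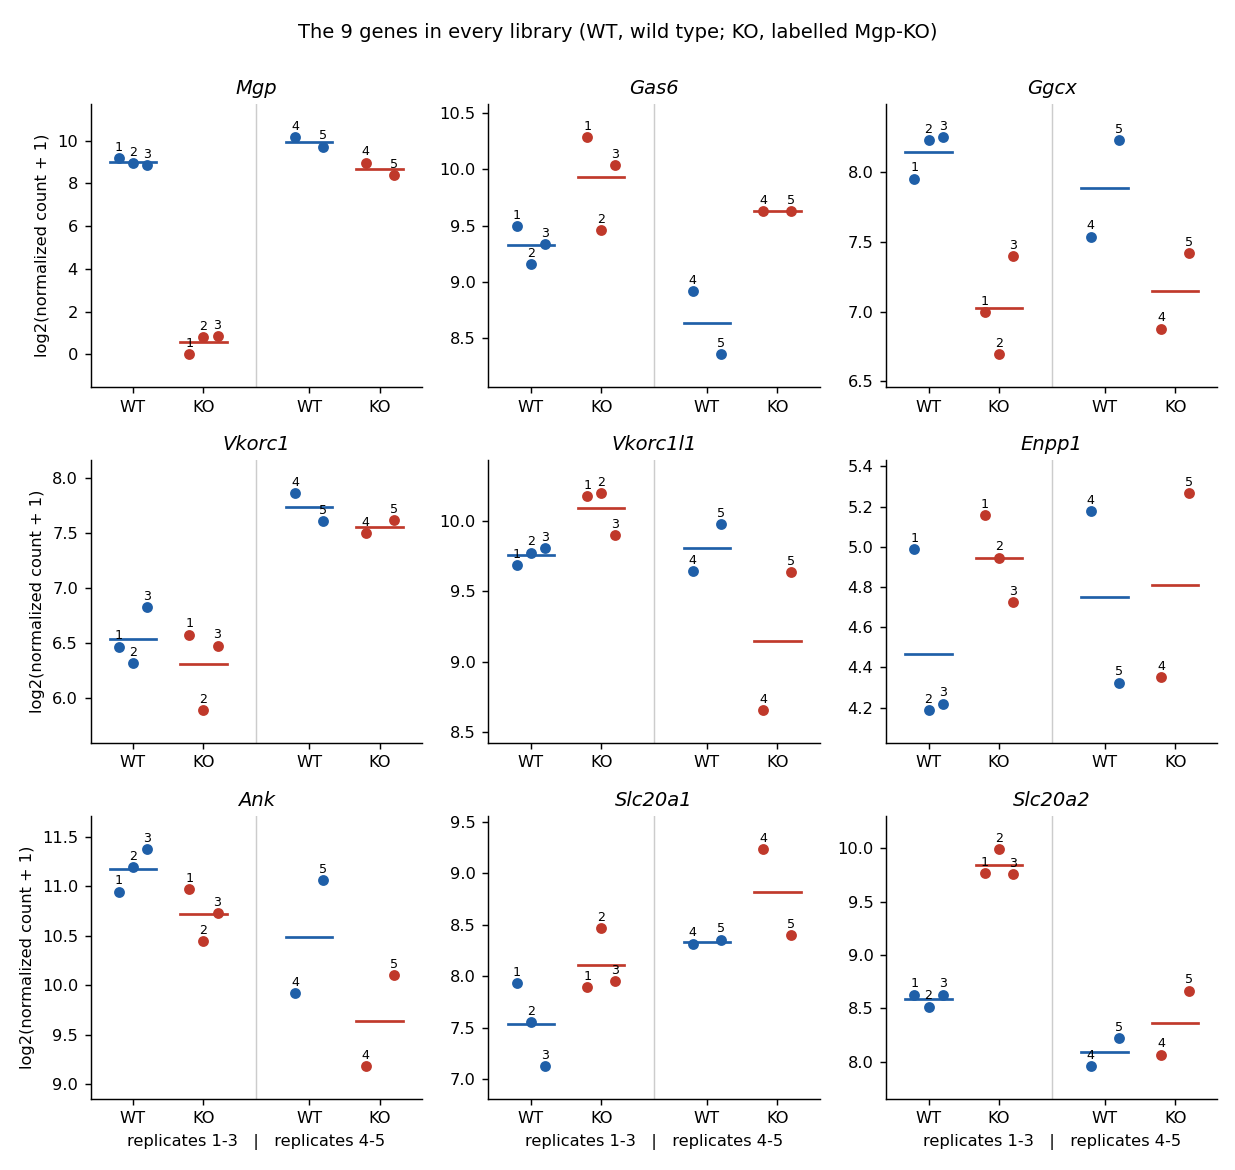
Log2(normalized count + 1) of the 9 genes in each library, with wild type in blue, KO-labelled libraries in red, replicates 1 to 3 left and 4 and 5 right of the grey line, the replicate number beside each point and a bar at the mean; each panel has its own scale. *Ggcx* in the 5 KO-labelled libraries lies below all 5 wild-type libraries, *Slc20a2* parts the genotypes in replicates 1 to 3, and *Vkorc1* parts the sets in both genotypes.

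*Mgp* is the deleted gene and its reads describe the sets, so calls are counted over the other 8 genes. Over all 10 libraries 0 of the 8 passed the threshold in limma, where 0.0656% of all tested genes did. At an unadjusted p under 0.05 there were 3 of the 8, *Gas6*, *Ggcx* and *Slc20a2* (10.4% of all tested genes). On the reads recovered from the same values, edgeR called 0 of the 8 (0.0219% of all genes) and DESeq2 called 1, *Ggcx* (2.26% of all genes). With the set term limma called *Ggcx*, which was lower (2.36% of all genes), edgeR called *Ggcx* and *Slc20a2* (2.49%) and DESeq2 called *Gas6*, *Ggcx* and *Slc20a2* (7.42%). Within replicates 1 to 3, whose KO-labelled libraries all but lacked *Mgp*, limma called 2 of the 8, *Ggcx* lower and *Slc20a2* higher (3.54% of all genes). The same 2 were called there by edgeR (3.27%) and DESeq2 (8.83%). Within replicates 4 and 5, with 2 libraries per genotype, limma called 0 of the 8 and 0% of all genes. *Gas6* had an unadjusted p under 0.05 in these 4 libraries (6.23% of all tested genes), and neither edgeR (0% of all genes) nor DESeq2 (0.367%) called any of the 8 there. Over all 10 libraries the log2 fold changes of the 8 genes ran from -0.96 (*Ggcx*) to 0.86 (*Slc20a2*), beside a median of 0.03 over all tested genes.

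The carboxylase *Ggcx* was the member whose genotypes stood apart in every library. Its gene (ENSMUSG00000053460.8) lies on chromosome 6 (forward strand, 72414308 to 72430712). Wild type 1 to 5 had normalized counts of 247, 299, 304, 185 and 299, and the KO-labelled libraries 1 to 5 had 127, 103, 168, 117 and 170. The highest KO-labelled library was below the lowest wild-type library, and the groups did not overlap, which held for 1 of the 9 genes and for 3.5% of all tested genes. The means were 267 ± 51.5 in wild type and 137 ± 30.5 in the KO-labelled libraries (SD, n = 5 each), a ratio of 0.512 (p = 0.00794 by a two-sided exact permutation test, the least that 5 against 5 can give). Over all 10 libraries the log2 fold change was -0.96 (SE 0.22, limma adjusted p = 0.106), and it had an adjusted p of 0.0343 from limma with the set term and 0.00407 from DESeq2 without it. It was -1.12 within replicates 1 to 3 (SE 0.20, limma adjusted p = 0.0340) and -0.74 within replicates 4 and 5 (limma adjusted p = 0.679). The difference of 0.38 between the sets had a 95% interval from -0.53 to 1.29 (adjusted p = 0.719 for the interaction in limma).

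The call of *Ggcx* in limma was close to the threshold. Within replicates 1 to 3 the adjusted p rose to 0.101, 0.156, 0.112 and 0.0919 in limma without wild type 1, 2, 3 or the KO-labelled library 1. With the set term it was between 0.0565 and 0.107 without any 1 of wild type 1, 2, 3 and 5 and the KO-labelled libraries 1, 2 and 3. Wild type 1 to 5 against only the KO-labelled libraries 1 to 3 gave -1.01 (limma adjusted p = 0.0643), a fit in which *Slc20a2* was called of the 8 (1.95% of all genes). Without wild type 2 as well it gave -0.96 (limma adjusted p = 0.131), and *Slc20a2* was again the 1 called (0.707% of all genes).

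*Vkorc1* encodes the epoxide reductase that warfarin inhibits, and lies on chromosome 7 (reverse strand, 127893063 to 127895617). It was 87.3, 78.6, 112, 232 and 194 for wild type 1 to 5, against 94.2, 58.1, 87.9, 180 and 195 for KO-labelled libraries 1 to 5. The genotypes overlapped, while every library of replicates 4 and 5 was above every library of replicates 1 to 3, which held for 1 of the 9 genes and 25.2% of all tested genes. The genotype effect was -0.21 with a 95% interval from -1.08 to 0.67 (limma adjusted p = 0.898), and it turned to 0.01 and 0.02 without wild type 4 or the KO-labelled library 2. The difference between the sets was 1.22 (SE 0.18, limma adjusted p = 0.000593, genotype in the model).

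Promoter sequence of the carboxylase and of this reductase is shown because *Ggcx* moved with the genotype label and *Vkorc1* with the set of libraries. Both are the 250 bases before the RefSeq gene start in GRCm38.p6, read 5′ to 3′ on the strand of the gene, at chr6:72414058-72414307 (forward) and chr7:127895618-127895867 (reverse). Capitals mark matches to the GC box GGGCGG and the CCAAT box CCAAT on either strand.
Ggcx: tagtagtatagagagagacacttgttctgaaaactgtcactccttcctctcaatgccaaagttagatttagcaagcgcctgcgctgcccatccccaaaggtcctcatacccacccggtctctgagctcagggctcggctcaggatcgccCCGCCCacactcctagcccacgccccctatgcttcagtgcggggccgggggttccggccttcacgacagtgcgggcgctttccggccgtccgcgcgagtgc
Vkorc1: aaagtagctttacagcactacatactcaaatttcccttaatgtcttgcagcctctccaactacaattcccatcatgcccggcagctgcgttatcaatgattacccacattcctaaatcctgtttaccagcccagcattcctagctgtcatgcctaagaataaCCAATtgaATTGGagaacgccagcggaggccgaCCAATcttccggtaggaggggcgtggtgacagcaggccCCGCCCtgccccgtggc
The *Ggcx* window has 1 GC box, 0 CCAAT boxes and 61.2% G or C, and that of *Vkorc1* has 1 GC box, 3 CCAAT boxes and 51.6% G or C, beside a median of 52.0% over all promoters. A GC box is found in 32.9% and a CCAAT box in 34.5% of the 27025 windows of the same length. Neither holds a TATAAA match (13% of windows) or a CACGTG match (6.05%). These are matches of letters and not measured binding sites. Of the 9 genes, 7 have an entry in this table, and *Mgp* and *Slc20a2* do not.

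*Vkorc1l1*, the paralog of *Vkorc1* on chromosome 5 (forward strand, 129941970 to 129986692), had opposite signs in the 2 sets. Wild type 1 to 5 had normalized counts of 825, 876, 895, 799 and 1007. In the KO-labelled libraries 1 to 5 they were 1159, 1177, 956, 401 and 795, so that the genotypes did not overlap within either set but overlapped over all libraries. Non-overlap within replicates 1 to 3 held for 3 of the 8 genes other than *Mgp* (30.6% of all tested genes) and within replicates 4 and 5 for 4 of the 8 (41.6%). The log2 fold change was 0.34 within replicates 1 to 3 (limma adjusted p = 0.168) and -0.67 within replicates 4 and 5 (limma adjusted p = 0.679). The difference of -1.0 between them did not pass the threshold (95% interval -1.84 to -0.17, adjusted p = 0.466 for the interaction in limma). Per kilobase the ratio of *Vkorc1l1* to *Vkorc1* was 1.51, 1.78 and 1.27 for wild type 1 to 3, with 0.551 and 0.830 in wild type 4 and 5. It was 1.96, 3.23 and 1.74 in the KO-labelled libraries 1 to 3 and 0.357 and 0.652 in replicates 4 and 5. *Vkorc1l1* was thus the higher reductase transcript per kilobase in all of replicates 1 to 3 and the lower one in all of replicates 4 and 5.

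The ligand *Gas6* (growth arrest-specific 6), a Gla protein that binds the receptors TYRO3, AXL and MERTK, was the vitamin K-dependent member with higher values where *Mgp* was lower. It lies on chromosome 8 (reverse strand, 13465374 to 13494490). Its normalized counts were 721, 572, 645, 484 and 327 for wild type 1 to 5, with 1250, 705, 1052, 793 and 790 in the KO-labelled libraries 1 to 5. Only the KO-labelled library 2 was below the highest wild-type library. The means were 550 ± 152 and 918 ± 227 (each SD, n = 5), and the log2 fold change was 0.76 (SE 0.24, limma adjusted p = 0.271). With the set term the adjusted p was 0.0583 in limma and 0.00426 in DESeq2. Without the KO-labelled library 2, limma called *Gas6* with the set term (0.91, limma adjusted p = 0.0252) and within replicates 1 to 3 (0.83, adjusted p = 0.0185, against 0.60 and 0.166 with it, both from limma). Leaving out any other library gave no call in either design, with limma adjusted p up to 0.147 and 0.398, both without wild type 2, and the smallest effect within replicates 1 to 3 was 0.42 without the KO-labelled library 1 (limma adjusted p = 0.295). The effect was 0.99 within replicates 4 and 5 (limma adjusted p = 0.679).

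*Enpp1* and *Ank*, which supply extracellular pyrophosphate, did not pass in any fit of the genotype effect. *Enpp1*, on chromosome 10 (reverse strand, 24637914 to 24712159), was the lowest of the 9 genes per kilobase, at 2.34 ± 0.818 (SD, n = 5) normalized counts per kb in wild type, above only 2.8% of tested genes. It was between 17.2 and 35.2 in wild type and between 19.4 and 37.5 in the KO-labelled libraries, and the ranges lay almost on each other. Its log2 fold change was 0.31 with a 95% interval from -0.39 to 1.01 (limma adjusted p = 0.792). *Ank*, on chromosome 15 (forward strand, 27466677 to 27594909), was 1970, 2347, 2659, 969 and 2137 for wild type 1 to 5, with 2006, 1395, 1696, 580 and 1100 in the KO-labelled libraries. The genotypes overlapped over all libraries and within each set (p = 0.167 over all libraries by a two-sided exact permutation test). The log2 fold change was -0.61 (95% interval -1.40 to 0.17, limma adjusted p = 0.593), with -0.46 for replicates 1 to 3 and -0.85 for replicates 4 and 5.

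The phosphate transporter *Slc20a2* was higher in the KO-labelled libraries of replicates 1 to 3, those from which *Mgp* was all but absent. It lies on chromosome 8 (forward strand, 22476788 to 22569612). Normalized counts were 395, 365 and 395 for wild type 1 to 3, with 873, 1020 and 864 in the KO-labelled libraries 1 to 3. Those were the 3 highest libraries of the series, at 2.39 times the wild-type mean of their set. In replicates 4 and 5 wild type had 248 and 298 and the KO-labelled libraries had 267 and 406, so the genotypes overlapped. The log2 fold change was 1.25 within replicates 1 to 3 (SE 0.12, limma adjusted p = 0.00523), 0.28 within replicates 4 and 5 (limma adjusted p = 0.809) and 0.86 over all 10 libraries (limma adjusted p = 0.421, 0.0505 with the set term). Against all 5 wild-type libraries, the KO-labelled libraries 1 to 3 were higher by 1.45 (limma adjusted p = 0.0130), and by 1.48 without wild type 2 (limma adjusted p = 0.0374). These fits set wild type of both sets against KO-labelled libraries of 1 set with no set term, and *Slc20a2* was lower in replicates 4 and 5, so genotype and set cannot be told apart in them. Within replicates 1 to 3 the call was lost without wild type 2 (1.21, limma adjusted p = 0.0519). The difference of the genotype effect between the sets, -0.97 with a 95% interval from -1.63 to -0.32, did not pass over all genes (adjusted p = 0.455 for the interaction in limma), so the effect is not shown to differ between libraries without and with *Mgp* reads.

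*Slc20a1*, the related transporter on chromosome 2 (forward strand, 129198764 to 129211616), was 244, 187, 139, 318 and 327 in wild type 1 to 5. It was 237, 353, 247, 602 and 336 in the KO-labelled libraries 1 to 5. Within replicates 4 and 5 the genotypes did not overlap, and within replicates 1 to 3 only the libraries numbered 1 kept them from parting. The log2 fold change was 0.53 with a 95% interval from -0.14 to 1.20 (limma adjusted p = 0.588), with 0.57 and 0.48 within the sets. Per kilobase, the ratio of *Slc20a2* to *Slc20a1* was 1.45, 1.75 and 2.55 for wild type 1 to 3, with 3.30, 2.59 and 3.14 in the KO-labelled libraries 1 to 3. For wild type 4 and 5 it was 0.699 and 0.817, against 0.398 and 1.08 in the KO-labelled libraries of that set. *Slc20a2* was thus the higher of both transporters in every library of replicates 1 to 3 and in 1 of the 4 others.

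**Figure D2:**
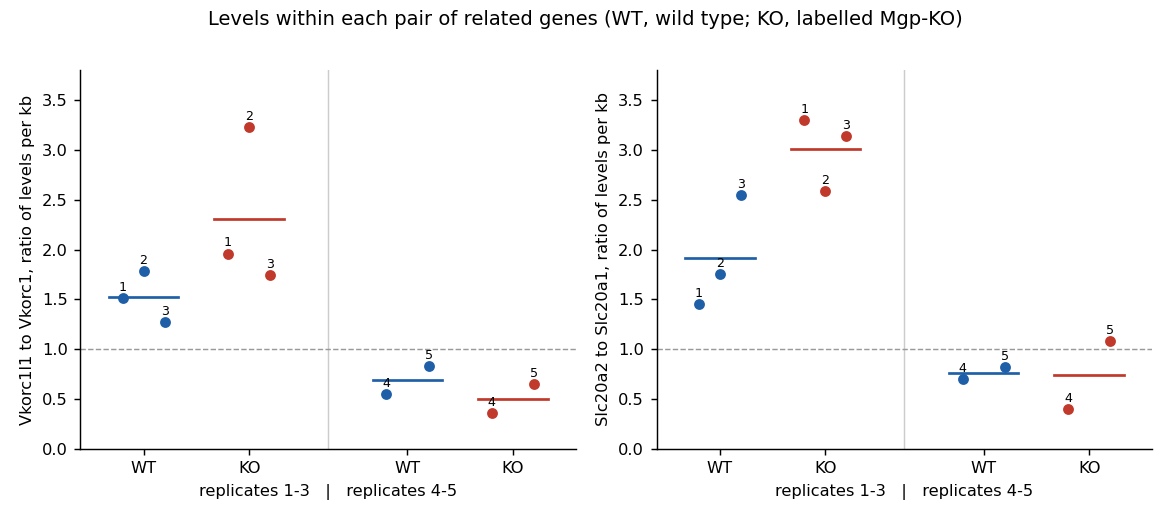
Ratio of normalized counts per kilobase of exon for *Vkorc1l1* to *Vkorc1* (left) and *Slc20a2* to *Slc20a1* (right) in each library, with wild type in blue, KO-labelled libraries in red, a bar at the mean and a dashed line at equal levels. All libraries of replicates 1 to 3 lie above 1 in both panels, and replicates 4 and 5 lie below 1 other than the KO-labelled library 5 at 1.08 in the right panel.

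Several of the 9 genes differed between the sets of libraries. With genotype in the model, 4 of the 8 genes other than *Mgp* differed between replicates 1 to 3 and replicates 4 and 5 in limma, where 38.2% of all tested genes did. *Mgp* is left out of this count, since its reads describe the sets, and in wild type its mean in replicates 4 and 5 was 1.95 times that in replicates 1 to 3. In replicates 4 and 5 *Vkorc1* and *Slc20a1* (0.75, limma adjusted p = 0.0165) were higher, and *Ank* (-0.88, adjusted p = 0.0177) and *Slc20a2* (-0.99, adjusted p = 0.00348) were lower. The set difference of *Ggcx* was -0.07, with a 95% interval from -0.53 to 0.38 (limma adjusted p = 0.810). What the sets stand for is not given in the labels, and the part of depth and of ribosomal RNA in these differences was not tested.

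**Figure D3:**
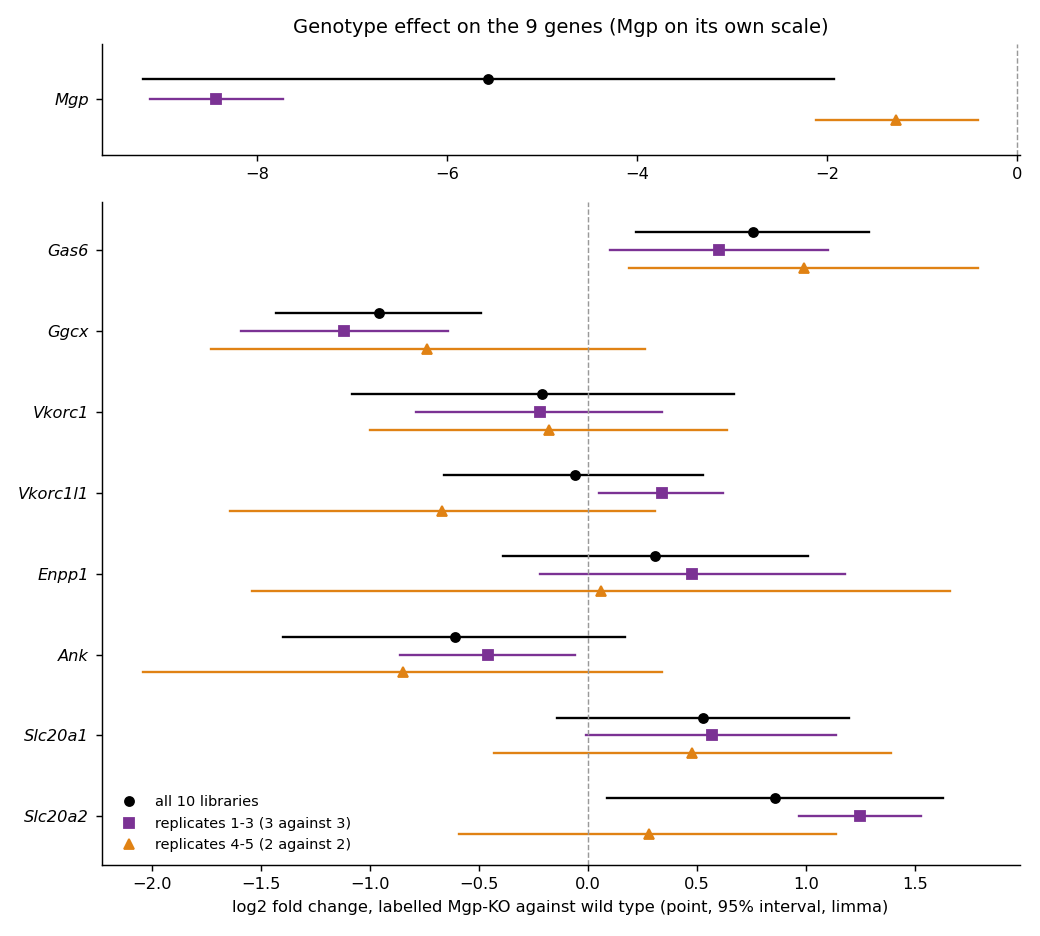
Log2 fold change of each of the 9 genes, KO-labelled libraries against wild type, with its 95% interval from limma over all 10 libraries (black circles), within replicates 1 to 3 (purple squares) and within replicates 4 and 5 (orange triangles); *Mgp* has its own scale. Besides *Mgp*, intervals clear of 0 are those of *Gas6* in all 3 fits, *Ggcx* (-1.43 to -0.49 over all libraries) and *Slc20a2* over all libraries and within replicates 1 to 3 (0.97 to 1.53 there), and *Vkorc1l1* and *Ank* within replicates 1 to 3; the intervals are not adjusted for the number of genes.

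Around the 9 genes, lists of the vitamin K cycle, Gla proteins, GAS6 receptors, pyrophosphate and adenosine handling, phosphate transport and other secreted mineral-binding proteins named 38 further genes, of which 20 were tested. In limma 0 of these 20 passed over all 10 libraries, with the set term or within replicates 1 to 3, and 7, 8 and 7 had an unadjusted p under 0.05, where 10.4%, 19.3% and 22% of all tested genes did. In these 3 designs edgeR also called 0, and DESeq2 called 0, 5 (*Fetub*, *Mertk*, *Nt5e*, *Prrg3* and *Spp1*) and 3 (*Fetub*, *Mertk* and *Prrg3*), beside 2.26%, 7.42% and 8.83% of all genes. Among the 4 other tested vitamin K cycle genes, the quinone reductase *Nqo1* had the largest value, with 17.0 ± 6.96 in wild type and 37.5 ± 13.4 in the KO-labelled libraries (SD, n = 5 each; 1.12, limma adjusted p = 0.315). *Calu*, an inhibitor of carboxylation, and *Aifm2* (FSP1), which reduces vitamin K, had log2 fold changes of -0.30 and -0.17. Of the other Gla proteins *Pros1*, *Prrg1*, *Prrg2* and *Prrg3* were tested, and *Prrg3* was highest at 0.68 (limma adjusted p = 0.376). The clotting factor genes were near or under the floor of 3 reads in most libraries, and *F10* had 0 to 2 reads in wild type and 3 to 8 in the KO-labelled libraries, which do not overlap but were not tested. Among the receptors of GAS6, *Mertk* had a log2 fold change of 1.0 (limma adjusted p = 0.325), with 860 in the KO-labelled library 2 against 239 to 523 in the other 4. *Axl* and *Tyro3* had -0.07 and 0.33.

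Beside pyrophosphate, ENPP1 also releases AMP, and the ecto-5′-nucleotidase *Nt5e* (CD73), which makes adenosine from AMP, was the tested gene of these lists besides *Ggcx* whose groups did not overlap, which held for 3.5% of all tested genes. It had normalized counts of 38.6, 43.4, 48.5, 42.5 and 67.5 for wild type 1 to 5, with 30.1, 32.9, 18.1, 27.5 and 19.9 in the KO-labelled libraries. The log2 fold change of -0.89 did not pass the threshold (SE 0.27, limma adjusted p = 0.253, 0.0962 with the set term), and it was -0.70 and -1.16 within the sets. *Alpl*, the phosphatase that breaks down pyrophosphate, had -0.69 (limma adjusted p = 0.426). Of the secreted proteins, *Spp1* (osteopontin) was at low counts, between 1.47 and 10.5 in wild type and between 4.11 and 39.0 in the KO-labelled libraries (1.91, limma adjusted p = 0.332). *Fetub* had 1.24 (limma adjusted p = 0.383, 0.0613 with the set term). *Phospho1*, which frees phosphate inside the cell and was chosen after its values were seen, had a genotype effect of 0.04 (95% interval -2.63 to 2.71, limma adjusted p = 0.993) and was between 618 and 797 in replicates 1 to 3 and between 22.3 and 68.0 in replicates 4 and 5. The phosphate exporter *Xpr1* had 0.00 with an SE of 0.22.

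**Figure D4:**
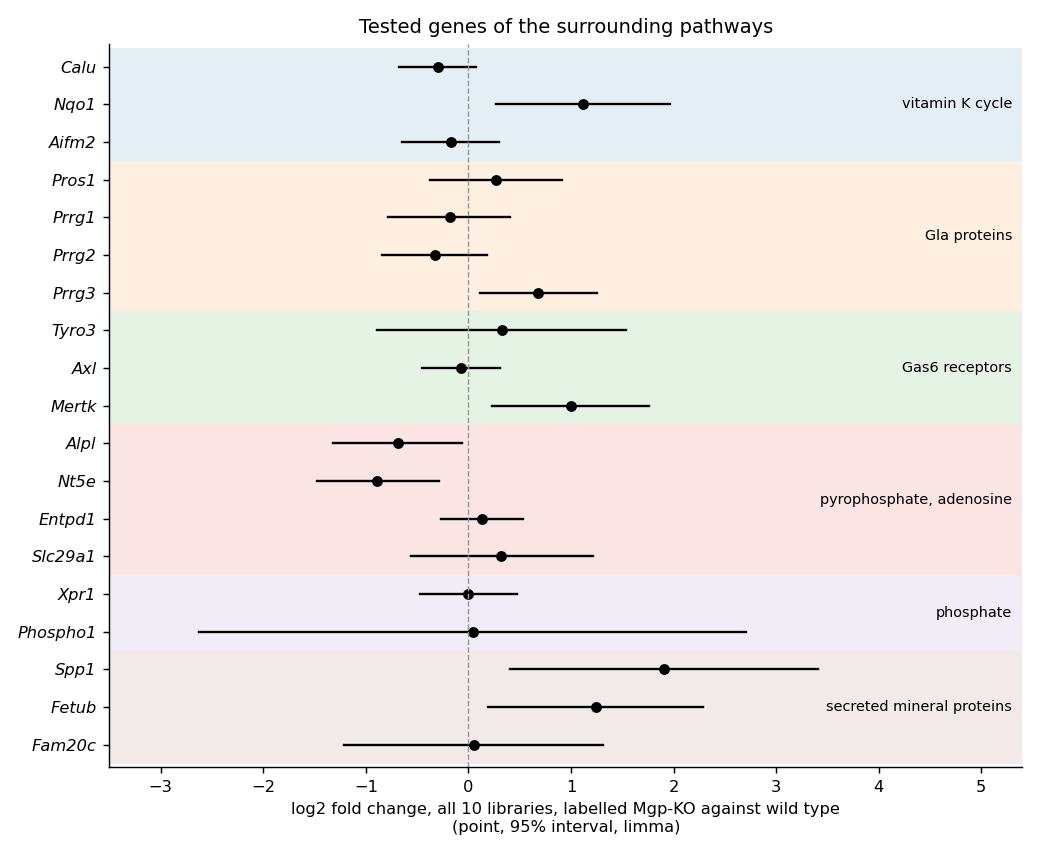
Log2 fold change, KO-labelled libraries against wild type over all 10 libraries, with the 95% interval from limma for 19 of the 20 tested genes of the surrounding lists, shaded by list. The intervals of *Nqo1*, *Prrg3*, *Mertk*, *Spp1* and *Fetub* lie above 0 and those of *Alpl* and *Nt5e* below 0 before adjustment, and 0 of the 20 passed in limma after adjustment over all 13714 genes.

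Cell type markers moved with the genotype label in some lists. The summed normalized count of 9 brown adipocyte markers was between 201309 and 215047 for wild type 1 to 3, with between 136723 and 169779 in the KO-labelled libraries 1 to 3. It was between 394142 and 400783 in wild type 4 and 5 and between 196936 and 286079 in the libraries of that set labelled *Mgp*-KO. With the set term limma called 3 of the 9 lower (2.36% of all tested genes were called in either direction), and the sum was lower in the KO-labelled libraries of each set, as *Ggcx* was. Between the sets the 2 parted: the sum was higher in replicates 4 and 5, while the set difference of *Ggcx* was -0.07. The sum of 8 endothelial markers ran from 18049 to 21017 in wild type and from 21424 to 24881 in the KO-labelled libraries of replicates 1 to 3, and from 18898 to 29753 and 30099 to 53147 in those of replicates 4 and 5, with 0 of the 8 called by limma with the set term. This sum was higher in the KO-labelled libraries of each set, and *Gas6* had its higher means there too. Between the sets *Gas6* was lower in replicates 4 and 5 (-0.50, limma adjusted p = 0.0571). The endothelial sum was higher there in the KO-labelled libraries and overlapped between the sets in wild type. Of 6 cartilage markers, which matter because cartilage is rich in *Mgp*, 5 were listed and 3 tested, and their sum was between 29.3 and 60.8 in wild type and between 85.7 and 244 in the KO-labelled libraries. The defining cartilage gene *Col2a1* had a median under the floor, and 1 of the 3 tested, *Acan*, was called higher with the set term (2.36% of all tested genes in either direction). Sums of 8 adipose progenitor, 7 mural and 8 myeloid markers overlapped between the groups over all libraries and within replicates 1 to 3, with 0 called. Within replicates 4 and 5 the progenitor sum ran from 6863 to 7628 in wild type and from 8697 to 14363 in the KO-labelled libraries, while the median log2 fold change of the 8 markers was -0.24. The myeloid sum ran from 1461 to 1661 and from 1850 to 2295, with a median of 0.41. Of 4 hepatocyte markers 3 were listed and 1 was tested, all 3 had a median under the floor, and their sum was at most 8.79 in wild type and reached 162 in the KO-labelled libraries of replicates 4 and 5, with 0 called. The sum of 6 skeletal muscle markers ran from 556 to 5848 in wild type and from 345 to 30133 in the KO-labelled libraries, also with 0 called. The part of these cells in the values of the 9 genes was not tested.

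Over the 10 libraries, with the mean of each set subtracted, the tested genes whose log2 values followed *Mgp* most closely were *Gm7463* (Pearson r = 0.962), *Dctn5* (0.957) and *Adrb3* (0.954), the beta-3 adrenergic receptor. *Gm7463* was at 0 in all 4 libraries of replicates 4 and 5, so its value rests on the 6 libraries of replicates 1 to 3. *Adrb3* had normalized counts of 290, 190 and 334 in the KO-labelled libraries 1 to 3, 868 and 951 in 4 and 5, and between 1200 and 2799 in wild type. Among the 9 genes *Slc20a2* was nearest to the inverse of *Mgp*, with r = -0.956, and 4 of the other 13713 tested genes had a lower value. *Ggcx* had 0.801 and *Gas6* had -0.593, and the remaining 5 genes lay between -0.551 and 0.379. Without the KO-labelled libraries 1 to 3 the values over 7 libraries were -0.764 for *Slc20a2*, 0.408 for *Ggcx* and -0.716 for *Gas6*. These are descriptions over libraries that share genotype labels, depth and set, and most of the range of *Mgp* comes from 3 libraries.

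Neighbours of *Mgp* and overlapping genes were also read. Of 12 annotated genes within 250 kb of *Mgp*, 5 were tested, 0 passed in limma over all 10 libraries (0.0656% of all tested genes) and 0 had an unadjusted p under 0.05 (10.4%), and their log2 fold changes lay between -0.29 and 0.16. The strand setting of the counting is not given in the sources used here, so reads of overlapping genes cannot be told apart. *Slc20a2* contains the sense intronic *Gm17491*, with means of 113 in wild type and 211 in the KO-labelled libraries, and shares 95 bases with *Smim19* on the other strand, at 703 and 685. *Gas6* overlaps *Tmem255b* (29.5 and 22.6) and *Ank* overlaps *Otulin* (271 and 231), both on the opposite strand. *Vkorc1* overlaps *Gm21974* on the same strand, which was not analysed here. *Vkorc1l1* overlaps *Gm42986* (4.9 and 7.78) and *Gm43482* (5.82 and 3.68), also on the same strand. The part of shared reads in the ratio of *Vkorc1l1* to *Vkorc1* was not tested.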

How the data were processed

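RNA of iBAT from 5 wild-type and 5 *Mgp*-KO mice, grouped by the sample labels, was sequenced with single reads of 50 bases. Per the methods, the authors mapped reads to mm10 with STAR, counted them on genes and divided the counts by DESeq2 size factors, so the deposited values are a signal per gene in normalized counts. The annotation release and strand setting are not given in the sources used here. All values (100%, within 0.01 reads) were whole multiples of the smallest value of their library, which gave back the reads, 9253793 to 22252260 per library. The floor of 3 reads covers counting error only. Genes with a mean of at least 10 (13714) were tested with limma 3.58.1 in R 4.3.3 on log2(normalized count + 1), with eBayes trend and Benjamini-Hochberg adjustment. As alternatives on recovered reads, edgeR 4.0.16 called 3 genes and DESeq2 1.42.0 called 374 over all 10 libraries. Coordinates and exon lengths come from the GENCODE annotation of GRCm38, which held 94.1% of the symbols, and promoters from RefSeq. The limma, edgeR and DESeq2 fits were tested on simulated data. The 9 genes were always described, other list genes were to be named where they passed in limma or did not overlap, and those named beside these were chosen after their values were seen. The values of 1 list gene are not reported here. The members, lists and sets were chosen with earlier results of these data known.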

Additional observations from a re-analysis of the deposited data

Results flagged for a closer look

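The genotype effect on *Mgp* within replicates 4 and 5 minus that within replicates 1 to 3 was 7.16 on the log2 scale. It is given as a description with no test, since the sets are described by the reads of *Mgp* itself. It drew attention as a difference between sets of libraries under the same contrast, since *Mgp* had 0, 1 and 1 reads in the libraries labelled *Mgp*-KO 1 to 3 and 309 and 282 in 4 and 5. The size depends on the pseudocount, between 4.37 with a pseudocount of 10 and 7.81 with 0.5. The cause was not tested.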

How the results depend on the processing

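Calls are counted over the 8 genes other than *Mgp*, with the share of all genes in brackets. Over all 10 libraries limma called 0 (0.0656%), limma with a set term 1 (2.36%) and edgeR with a set term 2 (2.49%). DESeq2 called 1 (2.26%), and 3 with a set term (7.42%). With wild type 1 to 5 against the libraries labelled *Mgp*-KO 1 to 3, limma called 1 (1.95%). Without wild type 2 as well it called 1 (0.707%), a fit chosen after seeing the data. Leaving out each library in turn gave 0 to 0 of these 8 without a set term (0% to 0.678% of all tested genes). With the set term it gave 0 to 2, and 1 with all (0.408% to 4.94%). Within replicates 1 to 3 it gave 0 to 3, and 2 with all. The 0 came without wild type 2 (0.19%, or 26 genes) and the 3 without the library labelled *Mgp*-KO 2 (5.91%, or 811 genes). Of all 9 genes, *Mgp* included, 1 to 3 (1 with all) had groups that did not overlap (4.07% to 6.81%). The sign of *Vkorc1l1* turned to 0.03 in edgeR and DESeq2 and to 0.32 in both fits against the libraries labelled *Mgp*-KO 1 to 3, and ranged from -0.19 to 0.20 (0.20 without the library labelled *Mgp*-KO 4) as libraries were left out, or from -0.15 to 0.18 with the set term (0.18 without the same library, 0.08 without wild type 5). *Vkorc1* ranged from -0.41 to 0.02 (-0.21 with all) as libraries were left out, with 0.01 and 0.02 without wild type 4 or the library labelled *Mgp*-KO 2, and was -0.70 and -0.88 in the fits against the libraries labelled *Mgp*-KO 1 to 3. For these moves the cause was not tested. The methods speak of pairs of mice, but no source used here says that a replicate number marks a pair, and the numbers were not taken to pair the libraries. Same-numbered libraries correlated in their deviations from group means with r between 0.0559 and 0.527 (mean 0.390), beside a mean of 0.416 for other numbers of the same set, and with r between -0.398 and 0.223 once set means were removed. Of the 5 numbers 2 matched their own best. With the replicate block, limma called 1 of the 8 over all libraries, *Ggcx* (limma adjusted p = 0.0343, 0.106 without the block, 1.97% of all tested genes). The edgeR fit with the block also called 1, *Ggcx* (1.62%). Within replicates 1 to 3 limma with the block called 1, *Slc20a2* (1.93%), and the block took the limma adjusted p of *Ggcx* from 0.0340 to 0.0518. Reads limit what can be said of *Enpp1* and the clotting factors, which were at low counts.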
